A study of Mus musculus with 6 samples.

Results

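Actin monomer binding and filament turnover genes were examined in TGF-β1-treated mouse lung fibroblasts (LFs). The group holds 10 genes, of 55364 genes listed in the count tables and 10346 that had enough counts to be tested. They are the beta-thymosins Tmsb4x and Tmsb10, the profilins Pfn1 and Pfn2, the cofilin/ADF proteins Cfl1, Cfl2 and Dstn, and the turnover proteins Capg, Cap1 and Gsn. The members were selected by name from these families with the measured difference between the groups already known, so that their differences between the groups are given as descriptions, with no test, and support nothing further. All 10 members passed the filter on low counts.

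The samples were primary LFs from C57Bl6/J mice aged 8 to 10 weeks, serum-starved and then exposed to 10 ng/ml TGF-β1 for 24 h, a treatment that both groups share, so that no library shows the cells without it. There were 3 libraries from wild type (WT) LFs and 3 from LFs that the labels call TKS5 knockout. TKS5 is a scaffold protein of podosomes, the actin-rich protrusions with which cells degrade matrix, and the methods of the study describe the animals as heterozygous for a Tks5 allele deleted with CMV-Cre, which acts in all tissues, as homozygous loss is lethal. Reads were taken from the 3′ ends of polyadenylated RNA (QuantSeq), and the totals ran from 1344507 to 2369882 counts in WT and from 1979084 to 2329155 in the libraries labelled TKS5 knockout (KO-labelled below). The study calls its samples biologically independent, without saying for these libraries whether that means separate animals or separate cultures. The standard errors and p-values rest on the spread between these samples. In the edgeR fit this spread was partly pooled over genes, so that the error of a gene is not that of its own libraries alone.

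Actin cycles between single subunits (G-actin) and filaments (F-actin). Beta-thymosins bind G-actin and hold it out of filaments, whereas profilins promote exchange of the bound nucleotide and deliver subunits to growing filament ends. Cofilins and ADF sever and disassemble old filaments, cyclase-associated proteins recycle the subunits they release, and gelsolin family proteins cap filament ends, some of them also severing filaments. In LFs this cycle serves stress fibres, protrusions and podosomes, and the ratio of G-actin to F-actin also controls the MRTF coactivators of the transcription factor SRF.

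The gene encoding TKS5, Sh3pxd2a, had 205, 190 and 284 counts in WT and 238, 258 and 260 in the KO-labelled libraries. This was a log2 fold change of 0.29 ± 0.20 (SE, edgeR adjusted p = 0.249), and it was not lower under the label, so that all directions below rest on the labels. The allele of the study lacks an exon, and reads from 3′ ends may still come from a transcript without that exon. These counts therefore do not test the deletion. By quantitative PCR, the paper reports lower Tks5 mRNA in heterozygous LFs. Alternative processing put it between -0.13 with library totals alone and 1.15 with correction for length and GC content, where Sh3pxd2a was called higher (edgeR adjusted p = 0.000142). Of the 10346 tested genes, 4642 (44.9%) were called, at an edgeR quasi-likelihood Benjamini-Hochberg adjusted p below 0.05 and a fold change of at least 1.2, with 2356 (22.8%) higher and 2286 (22.1%) lower. With library totals in place of TMM scaling the split was 1362 higher and 3944 lower, and the median of all tested genes moved from -0.05 to -0.47 on the log2 scale. All 9 fibroblast markers had counts in all libraries, though at uneven levels, with summed levels of 12464 to 14277 CPM (counts scaled by TMM to a common library size) in WT and 16197 to 18903 in the KO-labelled libraries. S100a4 made up most of each sum, at 8216 to 13110 CPM, followed by Col1a1 at 1456 to 3528 CPM, while Fap stood at only 4.51 to 9.63 CPM. Of the 9, 3 (33.3%, beside 22.8% of all tested genes) were called higher and none lower. These were Thy1 at 1.93 ± 0.24, Vim at 1.27 ± 0.21 and Pdgfra at 0.69 ± 0.26 (log2 fold change, SE). Pdgfra stayed called in 3 of the 6 fits that left out a library. Across all alternatives Vim ran from 0.57 to 1.43 and Pdgfra from 0.29 to 1.14, and neither was called in all of them. Among the 6 markers not called, Lum stood at -0.85 ± 0.43 and Dcn at -0.31 ± 0.20 (SE). Col1a1 (0.45), Col1a2 (0.39), S100a4 (0.33) and Fap (0.17) were positive.

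The sequences of the beta-thymosins are shown first because Tmsb4x carried the widest difference and the end of Tmsb10 shares stretches with another gene, described below. Both coding sequences (GENCODE M21, GRCm38, both on the minus strand) had 135 bases and 44 codons before the stop, and 95 positions (70.4%) were identical. Capitals mark the bases that differ at the same position of the other gene.
Tmsb4x: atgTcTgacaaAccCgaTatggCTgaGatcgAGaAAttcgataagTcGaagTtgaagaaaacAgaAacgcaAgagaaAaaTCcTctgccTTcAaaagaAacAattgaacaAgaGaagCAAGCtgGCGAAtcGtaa
Tmsb10: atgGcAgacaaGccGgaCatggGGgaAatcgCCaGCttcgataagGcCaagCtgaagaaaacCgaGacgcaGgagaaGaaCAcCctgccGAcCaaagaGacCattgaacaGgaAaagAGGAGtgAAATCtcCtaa
The differing bases were spread over the whole length.

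Of the 10 members, 7 were called higher (background 22.8%), 1 was called lower (background 22.1%) and 2 were not called. The median log2 fold change of the members was 0.80, beside -0.05 over all genes tested. CPM did not overlap between the groups for 9 members, Cap1 being the exception, where 53.8% of all tested genes did not overlap. As the members were chosen with this contrast known, nothing is read from these counts. With library totals alone, Tmsb10, Pfn2, Cfl1, Cfl2 and Gsn were not called and Cap1 was called lower, although relative to the median of all genes in that fit their differences were 0.84, 1.00, 0.84, 0.94, 0.71 and -0.12. In the normalized values of the authors, Tmsb10 (0.32), Pfn2 (0.84), Cfl1 (0.43) and Gsn (0.37) were not called. Leaving out any 1 library kept the call of each of the 8 called members and left Dstn and Cap1 uncalled.

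**Figure D1:**
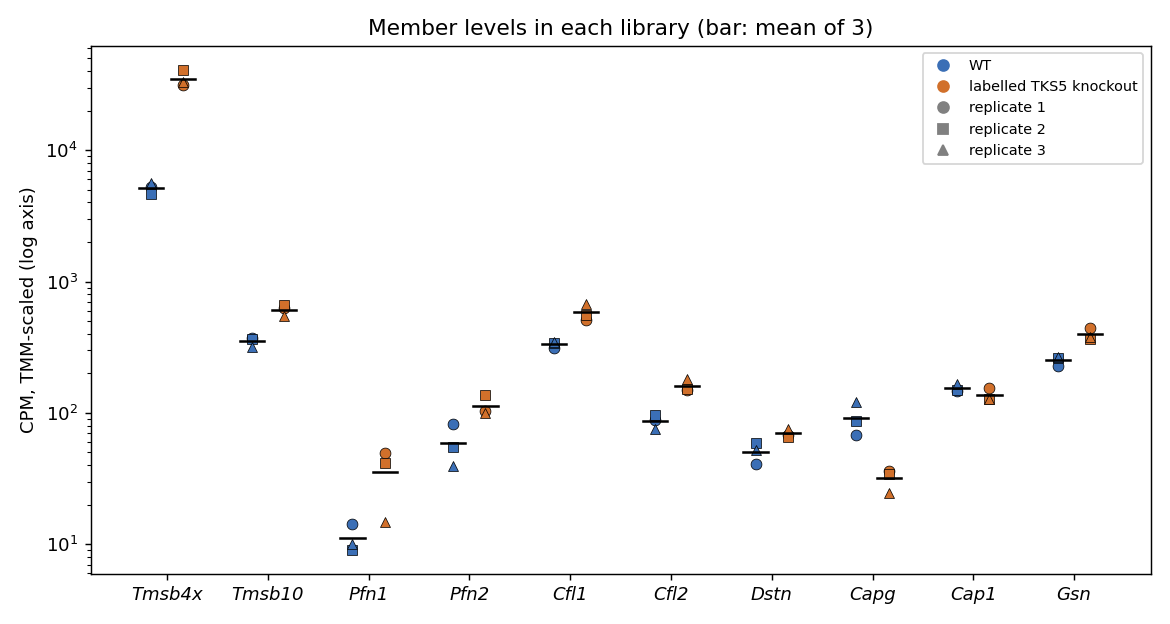
Level of each member in each library, as TMM-scaled CPM on a log axis. Blue points are WT and orange points KO-labelled libraries, with the point shape giving the replicate and the bar the mean of 3. Tmsb4x lies between 4618 and 5661 CPM in WT and between 31486 and 40851 in the KO-labelled libraries, while the points of Cap1 overlap.

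Thymosin beta 4, encoded by Tmsb4x (ENSMUSG00000049775, chromosome X, 167207093 to 167209315, minus strand), is the main G-actin sequestering peptide of many cells. Tmsb4x had 8215, 8631 and 15269 counts in WT and 57377, 69812 and 64617 in the KO-labelled libraries. Scaled, these were 5287, 4618 and 5661 CPM against 31486, 40851 and 33067 CPM. Every KO-labelled library stood above every WT library, and the group means were 5189 ± 528 and 35135 ± 5013 CPM (SD, n = 3 each). The fitted log2 fold change was 2.76 ± 0.23 (SE), a 6.77-fold difference that ranked 63 from the top of all tested genes, and it was 1.82 in the normalized values of the authors and 1.83 with correction for length and GC content. By counts, Tmsb4x was gene number 6, 9 and 5 in the WT libraries and number 1 in each KO-labelled library. Its share of the library was 0.611%, 0.524% and 0.644% in WT and 2.90%, 3.31% and 2.77% in the KO-labelled libraries.

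Tmsb4x lies on the X chromosome, and Xist, which is transcribed from the inactive X of female cells, had 0 counts in all 6 libraries. With 0 counts, a mean of up to 3 counts in a library remains possible. Reads were counted over annotated 3′ UTR regions, and ends outside them may be missed. The absence of Xist counts therefore does not show the sex of the cells. The Y-linked gene Ddx3y had 146, 159 and 210 counts in WT and 25, 19 and 21 in the KO-labelled libraries. The other Y-linked genes examined overlapped between the groups. Eif2s3y had 14, 13 and 35 counts against 26, 7 and 13, and Kdm5d had 2, 9 and 5 against 3, 8 and 2. Uty had 4, 15 and 23 counts against 6, 3 and 6. Whether the Ddx3y difference is related to that of Tmsb4x was not tested.

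Thymosin beta 10, the product of Tmsb10 (ENSMUSG00000079523, chromosome 6, 72957347 to 72958748, minus strand), is a second G-actin sequestering peptide. Tmsb10 levels were 374, 368 and 320.0 CPM in WT and 626, 664 and 546 CPM in the KO-labelled libraries. The groups were separate, and the log2 fold change was 0.79 ± 0.20 (SE). Corrected for transcript length, the Tmsb10 difference was 0.14 and no longer called, and it was 0.32 and not called in the normalized values of the authors. The last 300 bases of Tmsb10 share stretches of 50 bases with Gm9844, a gene on chromosome 7 annotated as protein coding, so that reads may have been split between them. Gm9844 itself had 195, 205 and 264 counts in WT and 426, 462 and 404 in the KO-labelled libraries, and the value of Tmsb10 is therefore uncertain.

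Ratios within a library do not depend on how libraries are scaled. Tmsb4x counts were 14.1, 12.6 and 17.7 times those of Tmsb10 in WT and 50.3, 61.5 and 60.6 times in the KO-labelled libraries. Against Actb, the gene of cytoplasmic beta-actin, Tmsb4x counts stood at 1.24, 0.965 and 1.51 in WT and at 8.27, 15.02 and 10.4 in the KO-labelled libraries. Both ratios were thus separate between the groups. The 10 members together took 0.686% to 0.803% of the counts in WT and 2.95% to 3.48% in the KO-labelled libraries, and without Tmsb4x these shares were 0.156% to 0.162% and 0.174% to 0.198%.

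**Figure D2:**
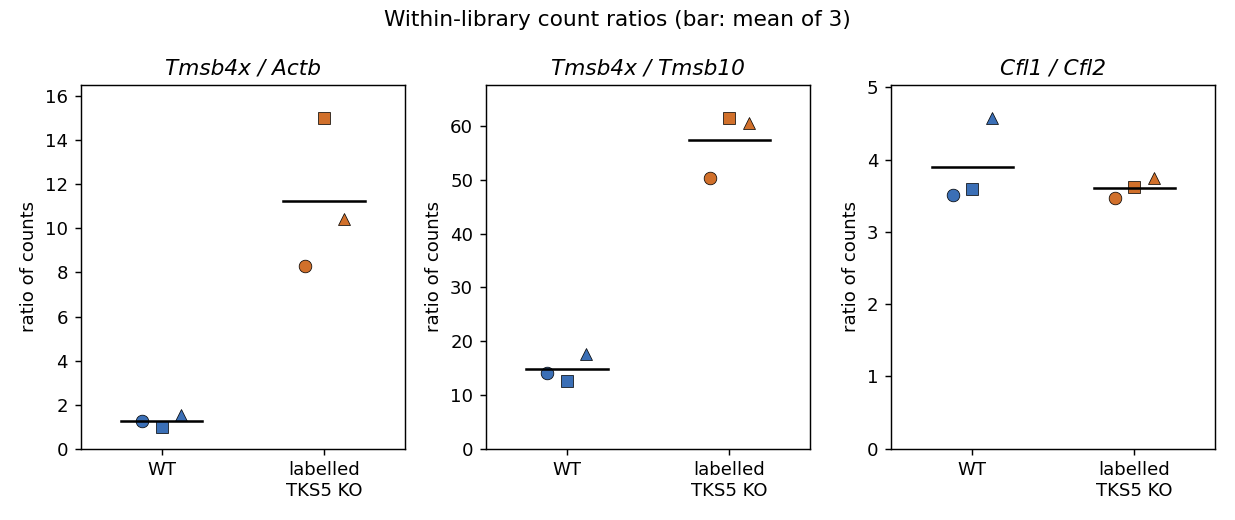
Ratios of counts within each library for Tmsb4x over Actb, Tmsb4x over Tmsb10 and Cfl1 over Cfl2, with blue points for WT, orange points for KO-labelled libraries and bars for the mean of 3. The Tmsb4x ratios are separate between the groups, whereas the Cfl1 over Cfl2 ratio runs from 3.51 to 4.58 in WT and from 3.46 to 3.75 in the KO-labelled libraries.

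Profilin reads were few. Pfn1 (ENSMUSG00000018293, chromosome 11, 70651850 to 70654644, minus strand), the broadly expressed profilin, had only 22, 17 and 27 counts in WT and 90, 71 and 29 in the KO-labelled libraries. These were 14.2, 9.10 and 10.0 CPM against 49.4, 41.5 and 14.8 CPM. The third KO-labelled library stood close to the WT libraries, at 14.8 CPM beside a WT maximum of 14.2. The log2 fold change was 1.68 ± 0.37 (SE), the largest error of the members, and it was 2.08 without that library.

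Pfn2 (ENSMUSG00000027805, chromosome 3, 57841895 to 57848079, minus strand), the other profilin, is best known from neurons. Its levels were 82.4, 54.6 and 39.7 CPM in WT and 104, 137 and 99.3 CPM in the KO-labelled libraries. The groups did not overlap although the WT libraries were spread widely, and the log2 fold change was 0.96 ± 0.25 (SE). The coding sequences of Pfn1 and Pfn2 both had 423 bases, of which 61.5% were identical. Pfn1 counts were 0.167 to 0.252 times those of Pfn2 in WT and 0.149 to 0.476 times in the KO-labelled libraries, ranges that overlap.

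The cofilin/ADF family is switched off by LIM and TES kinases, which phosphorylate a serine near the start of the protein, and switched on again by slingshot phosphatases. The start of the coding sequence is shown because this site is common to all family members and the kinases and phosphatases are described below. Capitals mark codon 3, a serine codon, in the first 60 coding bases (GENCODE M21, GRCm38).
Cfl1: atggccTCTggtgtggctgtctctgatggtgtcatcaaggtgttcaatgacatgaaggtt
Cfl2: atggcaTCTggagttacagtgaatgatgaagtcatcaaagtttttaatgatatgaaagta
Dstn: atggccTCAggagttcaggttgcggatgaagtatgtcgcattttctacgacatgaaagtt
Codon 3 was TCT in both cofilins and TCA in Dstn. Over the whole coding sequence Cfl1 and Cfl2 shared 71.5% of their bases, Cfl1 and Dstn 70.1%, and Cfl2 and Dstn 68.4%.

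Cofilin 1, the non-muscle cofilin encoded by Cfl1 (ENSMUSG00000056201, chromosome 19, 5490455 to 5495201, plus strand), had 310, 344 and 348 CPM in WT and 513, 555 and 678 CPM in the KO-labelled libraries. The groups were separate, with a log2 fold change of 0.80 ± 0.20 (SE). A gene on the opposite strand, Snx32, covers the Cfl1 end and had 6 to 21 counts in a library beside at least 481 for Cfl1, and the sources used here do not state whether counting used strand.

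Cofilin 2, the muscle cofilin encoded by Cfl2 (ENSMUSG00000062929, chromosome 12, 54858809 to 54862877, minus strand), had 88.2, 95.8 and 76.0 CPM in WT and 148, 153 and 181 CPM in the KO-labelled libraries. The groups were again separate, with a log2 fold change of 0.89 ± 0.20 (SE). Cfl1 counts exceeded those of Cfl2 by a ratio of 3.51 to 4.58 in WT and 3.46 to 3.75 in the KO-labelled libraries, ranges that overlap.

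Destrin, also called ADF and encoded by Dstn (ENSMUSG00000015932, chromosome 2, 143915320 to 143943324, plus strand), had 41.2, 59.4 and 51.9 CPM in WT and 68.0, 66.1 and 75.7 CPM in the KO-labelled libraries. The groups did not overlap, but the log2 fold change of 0.46 ± 0.22 (SE) was not called, and it was -0.14 after correction for both transcript length and GC content.

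Capg encodes a gelsolin family protein that caps filament ends without severing them and is abundant in macrophages. Capg (ENSMUSG00000056737, chromosome 6, 72544391 to 72562983, plus strand) was the only member called lower, with 68.2, 87.2 and 121 CPM in WT and 36.2, 34.5 and 24.6 CPM in the KO-labelled libraries. The lowest WT library stood above the highest KO-labelled one. The log2 fold change was -1.55 ± 0.25 (SE), a level 2.92-fold lower.

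Macrophage markers moved with Capg. Of 16 such markers, 11 were tested, and 7 (63.6%, beside 22.1% of all tested genes) were called lower and none higher. Adgre1, Itgax and Hcls1 kept their calls in all 6 fits that left out a library. Cybb stayed called in 4 of these fits, and Cd68, Laptm5 and Cd52 in 3. The summed level of the 16 markers ran from 401 to 2609 CPM in WT and from 125 to 148 CPM in the KO-labelled libraries. Of the 16, 15 had their highest CPM in the third WT library, where Lyz2 had 3502 counts beside 298 and 337 in the other WT libraries. Adgre1, Ptprc, Marco and Aif1 were at 0 counts in every KO-labelled library. In WT, however, Aif1 had only 2, 1 and 3 counts, Ptprc 4, 1 and 15 and Marco 10, 2 and 183. Other macrophage markers kept counts in the KO-labelled libraries, such as Lyz2 (139, 157 and 207) and Ctss (17, 29 and 28). Without the third WT library, which also had the highest Capg level, the log2 fold change of Capg was -1.30 and still called. Of the endothelial markers, 4 of 5 tested were also called lower and none higher, with summed levels of 112 to 141 CPM in WT and 45.6 to 59.9 in the KO-labelled libraries. Of 7 smooth muscle markers tested, 4 (Myh11, Des, Synpo2 and Cspg4) were called lower and 1 (Cnn1) higher. Of 3 epithelial markers tested, 2 (Krt18 and Cldn4) were called lower and 1 (Ager) higher. Epcam, Cdh1 and Krt8 were at 0 counts in every KO-labelled library, though Epcam (2, 1 and 3) and Krt8 (2, 7 and 2) were also low in WT. The 1 mesothelial marker tested, Upk3b, was called lower. The part of RNA of other cell types in the Capg values was not tested, and in such bulk samples fewer cells of a type and less RNA per cell cannot be told apart.

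Gelsolin, encoded by Gsn (ENSMUSG00000026879, chromosome 2, 35256380 to 35307892, plus strand), severs filaments and caps their growing ends in response to calcium. Gsn levels were 228, 261 and 264 CPM in WT and 446, 368 and 378 CPM in the KO-labelled libraries. All KO-labelled libraries stood above WT, with a log2 fold change of 0.66 ± 0.20 (SE). Gsn and Capg, 2 capping proteins of one family, thus stood in opposite directions, and Gsn counts were 2.19 to 3.34 times those of Capg in WT and 10.7 to 15.4 times in the KO-labelled libraries.

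Cap1 (ENSMUSG00000028656, chromosome 4, 122859047 to 122886056, minus strand) encodes a cyclase-associated protein that works with cofilin to recycle G-actin. Its levels of 147, 149 and 166 CPM in WT and 155, 127 and 128 CPM in the KO-labelled libraries overlapped. The log2 fold change of -0.17 ± 0.20 (SE) was not called. Ppt1, on the opposite strand, covers the end of Cap1 with 309 to 582 counts in a library, more than Cap1 itself, and without strand in the counting the reads of both cannot be told apart.

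**Figure D3:**
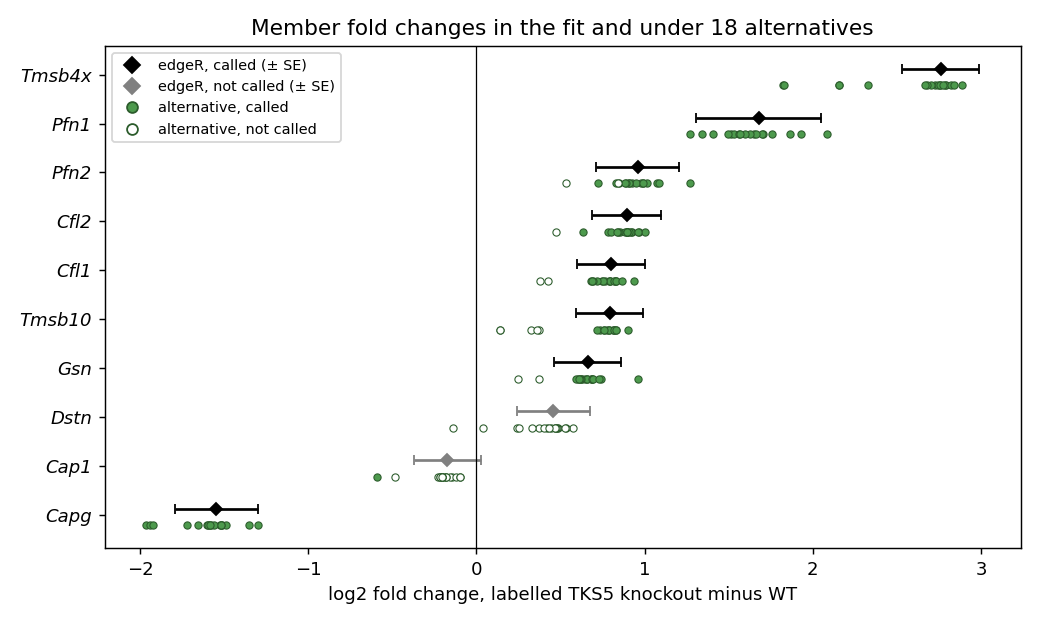
Log2 fold change of each member, KO-labelled minus WT, with diamonds for the edgeR fit (bars, SE) and circles for the 18 alternatives, filled where called. Tmsb4x, Pfn1 and Capg are called under all alternatives, and the circles of Dstn lie on both sides of 0.

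The CPM scale does not grow with transcript length for 3′ end reads. Reads were counted over annotated 3′ UTR regions, however, and ends outside them may be missed, which was not tested. A low value, such as that of Pfn1, therefore need not mean little transcript. The order of levels on this scale was the same in both groups for the highest members and changed below them. In WT it ran from Tmsb4x (5189 CPM) through Tmsb10 (354), Cfl1 (334), Gsn (251), Cap1 (154), Capg (92.1), Cfl2 (86.7), Pfn2 (58.9) and Dstn (50.8) to Pfn1 (11.1). The ranges of the neighbours Tmsb10 and Cfl1, Capg and Cfl2, Cfl2 and Pfn2, and Pfn2 and Dstn overlapped. In the KO-labelled libraries Tmsb4x (35135 CPM), Tmsb10 (612), Cfl1 (582) and Gsn (397) kept their places. Cfl2 (161) stood above Cap1 (137) there, and Capg (31.8) stood last, below Pfn1 (35.3). There the ranges of Tmsb10 and Cfl1, of Cfl2 and Cap1, of Cap1 and Pfn2, and of Pfn1 and Capg overlapped.

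The genes most like Tmsb4x over the 6 libraries, by the root mean square difference of centred log2 CPM, were Alkal1 (0.10), Cthrc1 (0.11) and Snora73b (0.16). Cthrc1, a secreted protein of matrix-producing fibroblasts, had a log2 fold change of 2.80 ± 0.26 (SE) on 17 to 182 counts. Among the genes most like Gsn were Afg3l2 (0.05), a mitochondrial protease subunit, and the creatine kinase Ckb (0.08). These are likenesses of pattern over 6 libraries in 2 groups.

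Transcript length moved with the difference between the groups across all genes. The tested genes were split into 3 classes of equal size by their longest annotated transcript. In the shortest class the median log2 fold change was 0.46 and 40.5% were called higher. The middle class had a median of -0.06 with 19.6% called higher, and the longest class a median of -0.44 with 8.22%. Tmsb4x (864 bases), Tmsb10 (690), Capg (1400), Dstn (1911), Pfn1 (1997) and Pfn2 (2342) fell in the shortest class and Cfl1 (2354), Gsn (2653), Cap1 (2768) and Cfl2 (2940) in the middle class, with none in the longest. With a correction for length the log2 fold change of Tmsb4x was 2.15, that of Cfl2 0.89 and that of Capg -1.94, all still called, and only Tmsb10 lost its call.

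**Figure D4:**
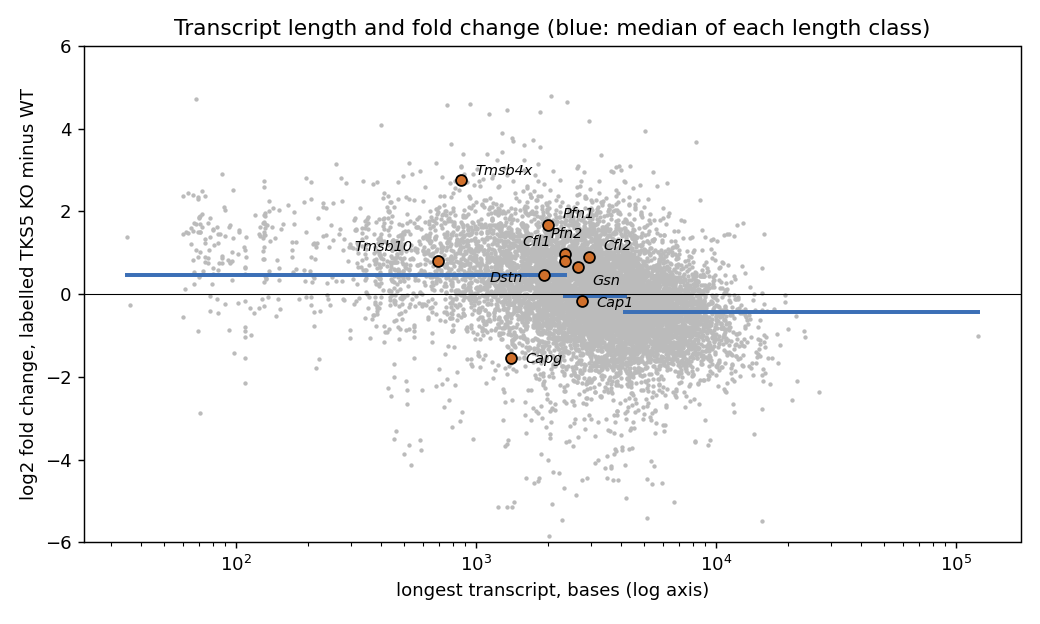
Longest annotated transcript of each tested gene, in bases on a log axis, against its log2 fold change, KO-labelled minus WT. Grey points are all genes with a length (6 lie outside the axis), blue lines the median of each length class and orange points the members. The medians fall from 0.46 to -0.44, and Capg lies below the other members.

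The proteins that the members act on were examined next, from lists of related genes. None of the 5 actins tested was called, with a median log2 fold change of -0.04. Actb had 6603, 8940 and 10127 counts in WT and 6935, 4649 and 6192 in the KO-labelled libraries, a log2 fold change of -0.40 ± 0.21 (SE, edgeR adjusted p = 0.129), and it was called lower at -0.81 with library totals alone, at -0.89 in the normalized values of the authors and at -0.61 with the length correction. Acta2, the smooth muscle actin that marks myofibroblasts, stood at -0.11 ± 0.21 (SE, edgeR adjusted p = 0.71), and at -0.94 and called lower in the normalized values of the authors. Actg1 was the most uneven, with 156, 460 and 165 counts in WT and 800, 298 and 361 in the KO-labelled libraries, and was called higher, at 1.73, only without the second WT library. Acta1, at 0.93 ± 0.42 (SE, edgeR adjusted p = 0.109), was called higher in 5 of the 18 alternatives. These were DESeq2 (0.97), no filter on low counts (0.92), the replicate block without and with the length correction (1.11 and 0.73) and the fit without the third WT library (1.64).

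Of the other genes of the members' families, 5 of 15 were tested. Cotl1, a small F-actin binding protein of the ADF fold that is abundant in leukocytes, fell from 416, 502 and 1155 counts in WT to 122, 64 and 103 in the KO-labelled libraries, with a log2 fold change of -2.62 ± 0.25 (SE, edgeR adjusted p = 7.74e-08). Like Capg it was highest in the third WT library, and it stood at -2.36 without that library. Flii, a gelsolin family protein, rose by 0.72 ± 0.21 (SE, edgeR adjusted p = 0.00722), and twinfilins Twf1 and Twf2 (0.36 and 0.33) were not called.

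Of 17 regulators of cofilin tested, 7 (41.2%, background 22.1%) were called lower and 1 (5.88%, background 22.8%) higher, with a median of -0.40. With the length correction 5 were lower and 1 higher with a median of -0.24, with length and GC content 4 were lower and 2 higher with a median of -0.17, and with library totals alone 11 were lower and 1 higher. Rock2, the kinase upstream of LIM kinases, had 297, 449 and 662 counts in WT and 116, 87 and 127 in the KO-labelled libraries, a log2 fold change of -1.91 ± 0.21 (SE, edgeR adjusted p = 3.68e-07). Its paralogue Rock1 fell by 1.25 ± 0.28 (SE, edgeR adjusted p = 0.00092) and the testis-type kinase Tesk1 by 0.93 ± 0.22 (SE, edgeR adjusted p = 0.00159). The phosphatase Ssh1, which acts against these kinases, fell by 1.31 ± 0.24 (SE, edgeR adjusted p = 0.000145). Pdxp, another phosphatase of cofilin, rose by 1.79 ± 0.46 (SE, edgeR adjusted p = 0.00332) on 4 to 34 counts. Limk1 (-0.53 ± 0.39) and Limk2 (-0.20 ± 0.21), the kinases themselves, were not called. Coro2b was also lower, at -2.004 overall and at -3.26 without the first KO-labelled library. Coro1c and Ssh2 completed the called genes, and of these Coro1c stayed called in 1 of the 6 fits that left out a library and Ssh2 lost its call without the third WT library.

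Among proteins of filament ends, 4 of 15 (26.7%, background 22.8%) were called higher and 1 (6.67%, background 22.1%) lower, with a median of 0.21. Capza2, a subunit of the heterodimer that caps growing ends, rose by 0.89 ± 0.21 (SE, edgeR adjusted p = 0.00189) and its partner Capzb by 0.64 ± 0.21 (SE, edgeR adjusted p = 0.0159). Enah, which protects ends from capping, rose by 0.71 ± 0.22 (SE, edgeR adjusted p = 0.0114). The count moved with the processing. Without the second WT library 1 gene was called higher and none lower, without the third WT library 2 were higher and 1 lower, the normalized values of the authors gave 2 higher and 1 lower, and library totals alone gave none higher and 2 lower. Enah, at 0.60, and Capzb, at 0.56, were not called without the second WT library, and Capzb was not called either, at 0.58, without the third WT library.

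Of 19 genes that start filaments, 4 (21.1%, background 22.8%) were called higher and 3 (15.8%, background 22.1%) lower, with a median of 0.10. Of 9 genes of subunits of the Arp2/3 complex, which grows branches from filaments, 4 were called higher and none lower, with Arpc5 at 1.24 ± 0.20 (SE, edgeR adjusted p = 3.60e-05), Actr3 at 1.11 ± 0.20 (SE, edgeR adjusted p = 0.000143) and Arpc1a at 0.86 ± 0.20 (SE, edgeR adjusted p = 0.00147). Arpc5l rose by 0.68 and lost its call without the second WT library, at 0.59. The other 5 were not called, with Arpc2 at 0.46, Arpc3 at 0.35, Actr2 at 0.10, Arpc4 at -0.10 and Arpc1b at -0.35, and Arpc1b was called lower with library totals alone and in the normalized values of the authors. The formin Diaph2, which grows unbranched filaments, fell by 2.65 ± 0.40 (SE, edgeR adjusted p = 1.60e-05). Another formin, Fmnl2, fell from 24, 22 and 40 counts in WT to 12, 6 and 9 in the KO-labelled libraries (edgeR adjusted p = 0.00348). The third gene called lower, Spire1, lost its call in each of the 6 fits without 1 library.

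Genes of the MRTF and SRF pathway, which responds to the pool of G-actin, were split, with 5 of 16 called higher and 5 lower and a median of 0.00. This balance changed with the processing, to 3 higher and 6 lower with a median of -0.57 in the normalized values of the authors, to 3 higher and 7 lower with library totals alone, to 4 higher and 3 lower with the length correction and to 3 higher and 1 lower with length and GC content. Tagln, an actin-bundling protein of smooth muscle, rose by 1.99 ± 0.25 (SE, edgeR adjusted p = 1.73e-06) and Srf itself by 1.74 ± 0.33 (SE, edgeR adjusted p = 0.000188), on 12 to 54 counts. Cnn1 rose by 0.996 ± 0.21 (SE, edgeR adjusted p = 0.00045). Myh9, the heavy chain of non-muscle myosin, fell by 0.95 ± 0.22 (SE, edgeR adjusted p = 0.00104) and Vcl, vinculin, by 0.94 ± 0.25 (SE, edgeR adjusted p = 0.00382). Mrtfa, which encodes an MRTF coactivator, was called lower at -0.77 ± 0.22 (SE, edgeR adjusted p = 0.00668). Over all 75 tested genes of these lists, 15 were called higher and 17 lower, where library totals alone gave 6 higher and 30 lower and the normalized values of the authors 9 higher and 22 lower. The background over all tested genes was 22.8% higher and 22.1% lower. Of the called genes named here, Flii, Capza2, Capzb, Enah, Arpc1a and Arpc5l were not called with library totals alone, and Capzb, Arpc1a and Arpc5l not in the normalized values of the authors. With the length correction Myh9 (-0.46), Mrtfa, Capzb, Coro1c, Ssh2 and Spire1 were not called, and with length and GC content these and Tesk1 (-0.29) and Arpc1a (0.46) were not. DESeq2 did not call Ssh2 and Spire1, and without the filter on low counts Spire1 was not called. Rock2, Rock1, Ssh1, Pdxp, Coro2b, Cotl1, Arpc5, Actr3, Diaph2, Fmnl2, Tagln, Srf, Cnn1 and Vcl were called under every alternative in which they were tested.

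**Figure D5:**
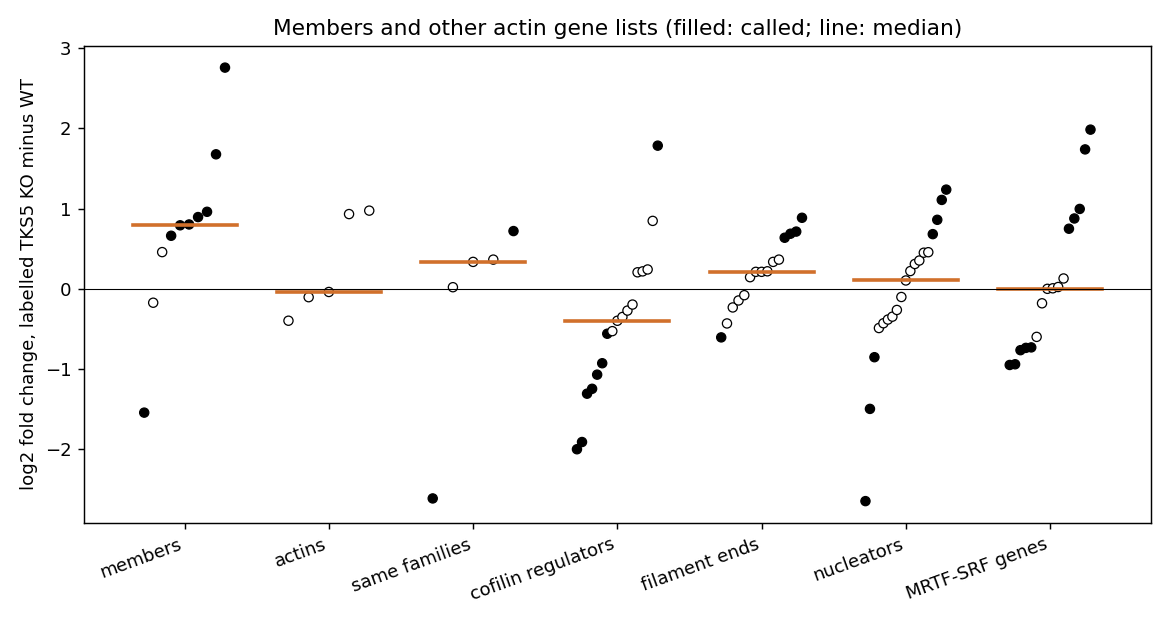
Log2 fold change, KO-labelled minus WT, of the members and of the tested genes of each actin list, with filled points for called genes and an orange line at each median. The members' median is 0.80, that of the cofilin regulators -0.40 and that of the MRTF-SRF genes 0.00, and the members were chosen with these values known.

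The CArG box, the motif bound by SRF, which is its own reverse complement and so is read on both strands at once, was looked for in promoter windows from 250 bases before to 50 after the start of each gene (RefSeq, GRCm38.p6). None of the 14 windows of the 10 members held it, beside 1.63% of all 32851 windows, 3 of 4 windows of actins and 6 of 20 of the MRTF and SRF genes. The absence of a match says only that these letters are not in that window.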

How the data were processed

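RNA of LFs in 6 libraries, 3 WT and 3 labelled TKS5 knockout, was sequenced from 3′ ends (QuantSeq, Ion Torrent). Per the labels and the methods of the study, reads were trimmed (Trim Galore), aligned (HISAT2, then Bowtie2) to GRCm38 and counted over 3′ UTR regions with metaseqR2. The deposited per-sample tables hold raw counts of reads per gene. A further table holds counts that the authors normalized with EDASeq, treated here as a score because the sorted values were the same in all 6 columns. Depth limits precision, and totals are given with the results. Confidence intervals are not printed, and spread is given as SE or SD. The strand setting of the counting is not given in the sources used here.

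Genes were filtered by group (filterByExpr), scaled by TMM and tested with the edgeR 4.0.16 quasi-likelihood test in R 4.3.3 over all 10346 genes, with Benjamini-Hochberg adjustment. Genes were called at an adjusted p below 0.05 and a fold change of at least 1.2. Fold changes are KO-labelled minus WT. Calls were repeated under 18 alternatives, among them DESeq2 1.42.0 and limma 3.58.1, the latter on log2(normalized value + 1) and with voom. The scripts were checked on simulated counts. The members and lists were chosen with earlier results of these data known. Named genes were all members, Sh3pxd2a, from each list the called genes, first the 3 of smallest adjusted p, and the 2 of highest mean CPM (of which not all are printed), overlapping or near-identical genes, markers that moved with a member, and the 3 genes most like Tmsb4x and Gsn, of which 1 is not reported here. Actg1, Acta1, Limk1, Limk2, Twf1, Twf2, the uncalled Arp2/3 subunits and the fibroblast markers were named after their values were seen. Gene positions and coding sequences come from GENCODE M21 (the principal transcript), symbols from a table that matched 55104 of 55364 identifiers. Replicates differed by more than sampling noise (chi-square per degree of freedom of 3.72 to 9.80).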

Additional observations from a re-analysis of the deposited data

How the results depend on the processing

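Each of the 10 members' log2 fold changes was recomputed under 18 alternatives, 180 values in all, of which 166 kept direction and call. The number of members called was 8 and fell to 4 with library totals alone (2 higher, 2 lower) and to 4 with the normalized counts of the authors (3 higher, 1 lower). Dstn, not called, reversed to -0.14 with the correction for transcript length and GC content, and Cap1 was called lower, at -0.59, with library totals alone, where the median of all tested genes was -0.47. The causes were not tested. Without 1 library, 3853 to 4595 genes, 8 members and 26 to 31 other actin genes were called, beside 4642, 8 and 32. Across the other alternatives all tested genes gave 3705 to 5306 calls and the other actin genes 23 to 36. Same-numbered libraries did not deviate together (correlations of -0.00, -0.06 and 0.08), and differently numbered pairs gave values from -0.10 to 0.10. Such values cannot show whether same-numbered libraries shared a litter, culture or day of preparation. With the replicate number as a block 4668 genes, 8 members and 33 other actin genes were called. With at most 27 counts in WT, Pfn1 is the member whose precision low counts limit most, and why they are low was not tested.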
